A study of Mus musculus with 12 samples.

Results

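The 10 transcription factors described here build the embryonic lung: Nkx2-1, Foxa1, Foxa2, Gata6, Sox2, Sox9 and Etv5 of the epithelium, and Foxf1, Tbx4 and Tbx5 of the mesenchyme and vessels. They were taken by gene symbol from 20774 genes listed in the deposited tables, and all 10 were among the 15921 genes that passed the filter on low counts. Messenger RNA of whole lung was sequenced from wild-type mice of the C57BL/6J strain, labelled as 8 weeks old. The animals had received paraquat (PQ), a herbicide that injures and scars the lung, as a single dose into the trachea, or saline by the same route as control. Lungs were taken at times labelled 1w and 4w, read here as weeks, giving 4 groups of 3 libraries: control 1w, PQ 1w, control 4w and PQ 4w. All groups shared the same strain and the same saline vehicle, and no allele or transgene was involved. The labels number the libraries but do not say that each came from its own animal, so p-values measure the spread between these samples only.

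NKX2-1 marks the lung lineage from its first appearance in the foregut and goes on to drive surfactant and secretoglobin genes in the adult alveolus and airway. FOXA1 and FOXA2 are pioneer factors that open chromatin and act with NKX2-1 on the same genes, and GATA6 is a zinc-finger factor of endoderm and alveolar epithelium. In the branching lung SOX2 marks the proximal airway epithelium, while SOX9 and the ETS factor ETV5, a target of fibroblast growth factor (FGF) signalling, mark the distal tips. FOXF1 is a forkhead factor of lung mesenchyme and capillary endothelium, and TBX4 and TBX5 are T-box factors of the lung mesenchyme. In RNA from whole lung, fewer cells of a type and less RNA per cell cannot be told apart.

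Levels were compared between the 10 genes only per transcript length, as the authors' FPKM (fragments scaled to transcript length and depth) averaged over the 6 control libraries. Foxf1 stood highest, at 111.5 ± 11.6 FPKM (SD, n = 6), followed by Nkx2-1 at 99.7 ± 4.48 FPKM. Their control ranges overlapped, at 92.8 to 128 FPKM for Foxf1 and 94.2 to 106 FPKM for Nkx2-1. Tbx4 came next at 37.6 ± 3.23 FPKM and Etv5 at 31.3 ± 4.58 FPKM, whose ranges overlapped as well. Foxa2 stood at 21.8 ± 1.07 FPKM, above every control value of Tbx5 (16.7 ± 1.45 FPKM) and Foxa1 (16.7 ± 2.23 FPKM), which did not differ beyond their spread. Gata6 followed at 12.7 ± 1.17 FPKM and Sox2 at 8.74 ± 3.56 FPKM. Sox9 was the lowest member by far, at 0.177 ± 0.0811 FPKM, and rests on 4 to 20 expected counts in each control library.

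The upstream sequences of Nkx2-1, Foxa1, Foxa2 and Etv5 are printed because these 4 epithelial factors were all lower in PQ 1w. They come from the RefSeq promoter table (GRCm38.p6). Gata6 was left out of this search, so the counts of member windows below do not cover it. The 9 windows used belong to 6 members: Nkx2-1, Foxa1, Foxa2, Sox2, Tbx4 and Etv5. Foxa2 has 3 of these windows and Etv5 has 2, and only the first of each is printed. Each printed stretch runs 5′ to 3′ on the gene's own strand, here the minus strand. It covers bases before the annotated start that lie in no exon of GENCODE M21. Motifs were counted over the full 250 bases of each window, so the counts include matches of Foxa1 and Etv5 that are not printed. The Foxa1 start used by the table lies inside the coordinates given for the gene. Capitals mark matches, on either strand, to any of 8 short motifs, whose letters are given with their counts after the sequences. These motifs and windows were chosen after the values were seen.
Nkx2-1, chr12:56536909-56537158: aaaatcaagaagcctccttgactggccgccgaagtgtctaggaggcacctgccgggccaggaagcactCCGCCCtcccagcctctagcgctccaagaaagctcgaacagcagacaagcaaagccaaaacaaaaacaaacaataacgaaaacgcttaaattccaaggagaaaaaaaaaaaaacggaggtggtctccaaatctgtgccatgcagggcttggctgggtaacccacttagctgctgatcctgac
Foxa1, chr12:57546122-57546361: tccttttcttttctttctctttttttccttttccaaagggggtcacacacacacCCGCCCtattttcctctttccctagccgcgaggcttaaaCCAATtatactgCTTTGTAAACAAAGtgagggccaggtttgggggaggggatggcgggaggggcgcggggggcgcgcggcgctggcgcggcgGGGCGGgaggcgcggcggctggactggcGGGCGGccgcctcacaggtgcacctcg
Foxa2, chr2:148046970-148047219: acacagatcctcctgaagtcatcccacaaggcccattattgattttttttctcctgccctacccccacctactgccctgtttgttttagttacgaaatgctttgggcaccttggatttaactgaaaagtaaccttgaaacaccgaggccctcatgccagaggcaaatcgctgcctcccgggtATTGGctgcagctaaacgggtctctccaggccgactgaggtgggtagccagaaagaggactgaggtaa
Etv5, chr16:22439720-22439820: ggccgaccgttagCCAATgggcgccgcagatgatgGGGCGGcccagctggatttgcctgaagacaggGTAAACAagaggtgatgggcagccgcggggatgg
The Foxa1 stretch holds the run actgCTTTGTAAACAAAGtgagg (chr12:57546238-57546260), in which a forkhead match lies between and overlaps 2 SOX matches on opposite strands. The forkhead letters TGTTTAC were present in 2 of the 9 windows of members, those of Foxa1 and Etv5, and in 3.17% of all 32851 windows of the table over the same 250 bases. The SOX letters ACAAAG were in 3 of 9 windows of members and in 16.5% of all windows. A GC box, spelled GGGCGG, was in 7 of 9 windows of members, among them those of Nkx2-1, Foxa1 and Etv5 printed here, and in 32.7% of all windows. The windows of members held 50.8% to 72.0% G and C bases, and the median over all windows was 52.4%. The part of this base content in the motif counts was not tested. A CCAAT box was in 5 of 9 windows of members and in 33.8% of all windows. The ETS letters GGAAGT, known from factors such as ETV5, were in 2 of 9 windows of members and in 19.7% of all windows. The GATA letters AGATAA were in 1 of 9 windows of members and in 9.99% of all windows. A TATA box, spelled TATAAA, was in 2 of 9 windows of members and in 12.4% of all windows. The NK2 letters CAAGTG, known from NKX2-1, were in 0 of 9 windows of members and in 11.6% of all windows. Matches of different motifs can share bases, and a match describes letters in a window, not a bound site.

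Of the 10 factors, 5 fell and 2 rose in PQ 1w against control 1w at an adjusted p under 0.05 (edgeR's quasi-likelihood test, Benjamini-Hochberg over all 15921 genes). Foxa1, Foxf1, Nkx2-1, Foxa2 and Etv5 fell, Sox9 and Tbx4 rose, and Gata6, Sox2 and Tbx5 did not pass. Over all genes 22.9% were called lower and 25.9% higher in that comparison, and the median log2 effect was -0.34 over the members and 0.00 over all genes. At 4w only Foxf1 passed, lower in PQ, with 0 members higher, where 6.39% of all genes were called lower and 5.75% higher. At 4w 2 members were higher and 1 lower at an unadjusted p under 0.05 in edgeR, where 13.1% of all genes were higher and 14.9% lower by that rule. DESeq2 called 1 member higher and 1 lower at 4w, against 7.25% and 6.65% of all genes. The effect of PQ differed between the times for 4 members (Nkx2-1, Foxa1, Foxa2 and Etv5), all with the 4w effect above the 1w effect, against 14.1% of all genes. In that test edgeR called 0 members with the 4w effect below the 1w effect, against 17.9% of all genes. The members were also 0 at an unadjusted p under 0.05, against 23.3% of all genes, and in DESeq2, against 16.2%.

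**Figure D1:**
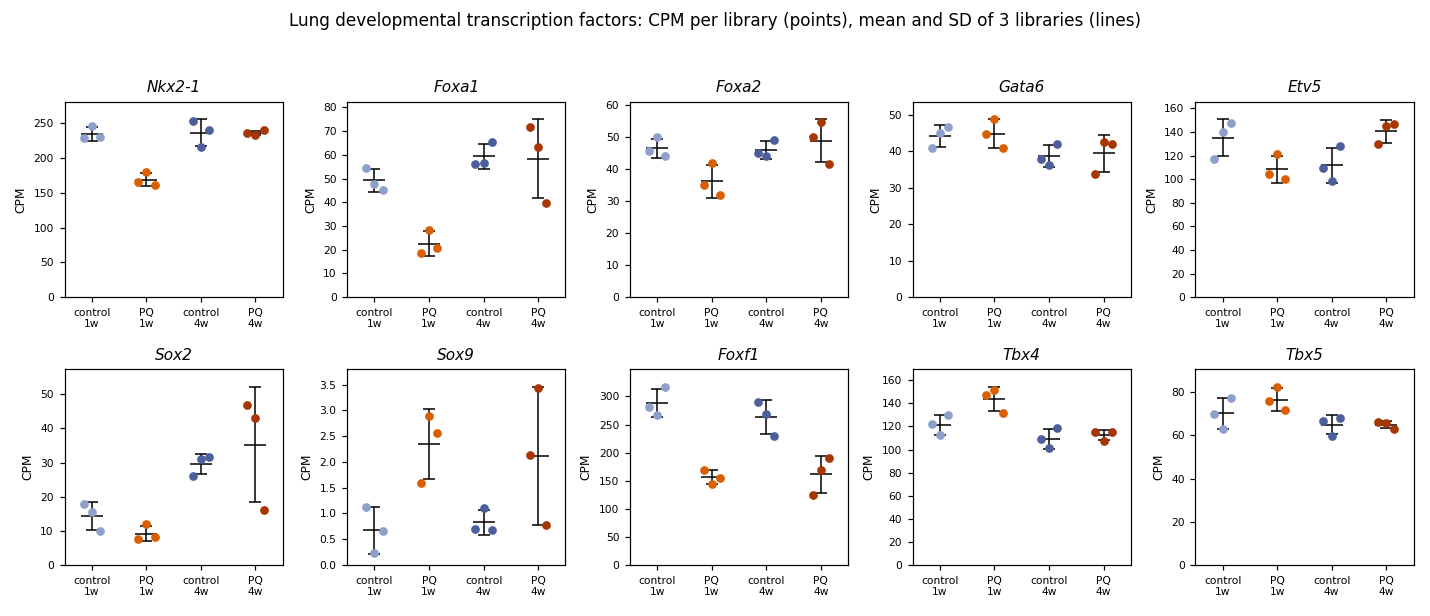
CPM (y axis, starting at 0) of the 10 factors in the 12 libraries, with a point for each library and lines for the mean and SD of the 3 libraries of a group. Foxf1 lies below its controls at both times, while Nkx2-1 and Foxa1 lie below them in PQ 1w alone, and Sox2 and Sox9 spread widely in PQ 4w.

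The libraries held 17220978 to 18559809 expected counts each, with scaling (TMM) factors of 0.974 to 1.06. The first principal component (54.6% of variance) separated the 3 PQ 1w libraries, at 61.1 to 64.7, from all others, at -35.5 to -5.55. On the next (19.7%) replicates 1 and 2 of PQ 4w lay at -36.9 and -34.4 and replicate 3 at 4.51, so this library stood apart from its group. The members' effects at 4w are also given without it. Lung markers were abundant throughout: the surfactant gene Sftpc averaged 17552 ± 2825 CPM (SD, n = 3) in control 1w and 9413 ± 568 CPM in PQ 1w. Beside these groups, the 12 proliferation genes of a fixed list were all higher in PQ 1w, 11 of 14 macrophage genes were higher and 1 lower, and the 12 T, NK and B cell genes were all lower. The part of these shifts in the results below was not tested.

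Nkx2-1 (gene ID 21869, chr12:56531935-56536908, GRCm38, minus strand, 3 exons in its longest coding transcript) carried 228, 246 and 229 CPM in control 1w and 165, 180 and 161 CPM in PQ 1w. CPM are expected counts scaled to the TMM-adjusted size of the library. Every PQ 1w library lay below every control, with a difference of -0.47 ± 0.07 (log2, approximate standard error) or 1.39-fold (adjusted p = 0.000165). At 4w the controls stood at 253, 216 and 240 CPM and the PQ libraries at 236, 233 and 239 CPM. These groups overlapped and their difference was -0.00 ± 0.07 log2 (adjusted p = 1.0). The 2 effects differed by 0.47 ± 0.10 log2 (adjusted p = 0.00376), and Nkx2-1 was higher in PQ 4w than in PQ 1w by 0.48 ± 0.07 (adjusted p = 0.000124). NKX2-1 is also a thyroid factor, and the 7 thyroid genes of a fixed list summed to between 2.45 and 10.3 CPM in the 12 libraries, with up to 3 of them at 0 in a library. Of the 3 tested, 2 were lower in PQ 1w, and thyroglobulin (Tg) averaged 1.86 CPM in control 1w and 0.821 CPM in PQ 1w. An antisense gene, Gm26973, overlaps Nkx2-1, and the strandedness of the counting is not given in the sources used here, so reads of both cannot be told apart.

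Foxa1 (gene ID 15375, chr12:57540628-57548029, minus strand, 2 exons) changed most among the members that fell. It stood at 54.6, 47.7 and 45.3 CPM in control 1w and at 18.4, 28.3 and 20.8 CPM in PQ 1w. The groups did not overlap and differed by -1.13 ± 0.20 log2, or 2.18-fold (adjusted p = 0.000638). At 4w it stood at 56.1, 56.5 and 65.3 CPM in the controls and at 71.9, 63.2 and 39.7 CPM in PQ, where the libraries overlapped and replicate 3 was the lowest of all 6. The difference at 4w was -0.03 ± 0.19 (adjusted p = 0.95), and 0.19 (adjusted p = 0.43) without PQ 4w replicate 3. The effects at the 2 times differed by 1.10 ± 0.28 log2 (adjusted p = 0.0104), and by 1.30 (adjusted p = 0.000518) without that library.

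Foxa2 (gene ID 15376, chr2:148042877-148046969, minus strand, 3 exons), the paralog of Foxa1, also fell at 1w. The control 1w libraries had 45.6, 49.9 and 44.2 CPM and the PQ 1w libraries 34.9, 41.7 and 31.7 CPM, again without overlap. The difference was -0.37 ± 0.11 log2, or 1.29-fold (adjusted p = 0.0183), and it missed the threshold (adjusted p of 0.0535 to 0.0831) without control 1w replicate 2, PQ 1w replicate 1 or PQ 1w replicate 3. At 4w the values were 45.0, 43.9 and 49.1 CPM in controls and 50.03, 54.8 and 41.6 CPM in PQ, which overlapped (0.09 ± 0.11, adjusted p = 0.665). The change of the effect between times was 0.45 ± 0.16 (adjusted p = 0.0482) and passed in only 3 of the 12 fits with 1 library left out. The count of Foxa2 divided by that of Foxa1 was 0.835, 1.05 and 0.975 in control 1w and 1.89, 1.47 and 1.53 in PQ 1w. In control 4w this ratio was 0.801, 0.778 and 0.751, and in PQ 4w 0.696, 0.867 and 1.05, so the 3 PQ 1w libraries had the highest ratios of all 12. These ratios carry no test.

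Gata6 (gene ID 14465, chr18:11052510-11085636, plus strand, 7 exons) showed no difference beyond its spread at either time. It stood at 40.9, 45.2 and 46.7 CPM in control 1w and at 44.7, 48.8 and 40.9 CPM in PQ 1w, a difference of 0.02 ± 0.10 log2 (adjusted p = 0.893). At 4w the controls had 37.9, 36.2 and 42.1 CPM and the PQ libraries 33.7, 42.5 and 42.0 CPM (0.02 ± 0.10, adjusted p = 0.907). All these groups overlapped. Gata6 shares its locus with 1010001N08Rik on the opposite strand, which averaged 1.48 CPM.

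Etv5 (gene ID 104156, chr16:22381313-22439570, minus strand, 13 exons) fell in PQ 1w, while its point estimate at 4w was above 0, as were those of Foxa2 and Sox2. It stood at 117, 140 and 147 CPM in control 1w and at 104, 121 and 99.7 CPM in PQ 1w, where 1 PQ library lay within the control range. The fall was -0.32 ± 0.11 log2, or 1.25-fold (adjusted p = 0.0341), and missed the threshold in 4 of the 6 fits that left out a library of these groups, with adjusted p of 0.0951 to 0.148. Those were the fits without control 1w replicates 2 or 3 and without PQ 1w replicates 1 or 3. At 4w it stood at 109, 98.0 and 128 CPM in the controls and at 130, 145 and 147 CPM in PQ, with every PQ library above every control. That difference of 0.33 ± 0.11 missed the threshold in edgeR with TMM scaling (adjusted p = 0.0761). With library totals alone as the scale it was 0.41 (adjusted p = 0.0296), and DESeq2 gave 0.35 (adjusted p = 0.0335). The effects differed between the times by 0.65 ± 0.16 log2 (adjusted p = 0.00893).
Etv4, its close paralog and another FGF-responsive ETS factor, stood at 0.623, 0.455 and 0.501 CPM in control 1w and at 9.30, 14.3 and 12.5 CPM in PQ 1w. It rose by 4.50 ± 0.31 log2 (adjusted p = 4.93e-07), from 28 to 660 summed counts, while Etv5 fell. At 4w Etv4 had 0.752, 0.566 and 0.742 CPM in the controls and 2.25, 2.70 and 1.15 CPM in PQ, again higher without overlap (1.56 ± 0.33, adjusted p = 0.0116).

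Sox2 (gene ID 20674, chr3:34649995-34652461, plus strand, 1 exon) had 17.9, 15.6 and 9.97 CPM in control 1w and 7.70, 11.9 and 8.13 CPM in PQ 1w. The groups overlapped and the difference of -0.65 ± 0.35 log2 missed the threshold (adjusted p = 0.147), though it passed when only these groups were fitted (-0.66, adjusted p = 0.0312). At 4w the controls had 26.2, 30.9 and 31.7 CPM and the PQ libraries 46.7, 43.1 and 16.0 CPM: 2 PQ libraries lay above every control and replicate 3 below every control. The difference was 0.25 ± 0.32 (adjusted p = 0.655), and 0.60 (adjusted p = 0.0646) without replicate 3. Without that library the change of the PQ effect between the times also passed, at 1.24 (adjusted p = 0.00589), against 0.90 ± 0.48 (adjusted p = 0.169) with it. A noncoding gene, Sox2ot, overlaps Sox2 on the same strand. It averaged 1.43 CPM and did not pass at either time (0.06 and 0.13 log2, adjusted p = 0.886 and 0.787).

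Sox9 (gene ID 20682, chr11:112782210-112787757, plus strand, 3 exons) rested on few counts. Its expected counts were 20, 4 and 12 in control 1w and 29, 53 and 47.04 in PQ 1w, that is 1.13, 0.227 and 0.668 CPM against 1.60, 2.89 and 2.57 CPM. The groups did not overlap and the rise was 1.79 ± 0.55 log2, or 3.45-fold (adjusted p = 0.0167). It missed the threshold without control 1w replicate 2 (1.38, adjusted p = 0.059) or without PQ 1w replicate 2 (1.61, adjusted p = 0.0539). At 4w the controls had 0.694, 1.10 and 0.685 CPM and the PQ libraries 2.14, 3.44 and 0.769 CPM, with replicate 3 inside the control range. The difference of 1.36 ± 0.54 missed the threshold (adjusted p = 0.12) and passed without that replicate (1.76, adjusted p = 0.022). SOX9 also drives cartilage genes: of 15 matched chondrocyte genes 8 were tested, 2 rose and 2 fell at 1w, and Acan, the main cartilage proteoglycan gene, summed to 0 counts in control 1w and 6 in PQ 1w.

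Foxf1 (gene ID 15227, chr8:121084386-121088154, plus strand, 2 exons) was lower in PQ at both times. It stood at 281, 267 and 317 CPM in control 1w and at 170, 145 and 155 CPM in PQ 1w, a fall of -0.88 ± 0.14 log2, or 1.84-fold (adjusted p = 0.000248). At 4w the controls had 290, 268 and 230 CPM and the PQ libraries 125, 168 and 191 CPM, a fall of -0.70 ± 0.14, or 1.63-fold (adjusted p = 0.00829). No PQ library reached its controls at either time. The effects at the 2 times did not differ beyond their error (0.18 ± 0.19, adjusted p = 0.515). The call at 4w missed the threshold when only these groups were fitted (-0.70, adjusted p = 0.0535) and without control 4w replicate 1 (-0.62, adjusted p = 0.0514). Over 16 alternatives the effect on Foxf1 at 4w ranged from -0.84 to -0.55.
Fendrr, a long noncoding RNA gene, lies 1275 bases from Foxf1 on the opposite strand. It stood at 316, 310 and 326 CPM in control 1w and at 142, 115 and 138 CPM in PQ 1w (-1.27 ± 0.11 log2, adjusted p = 2.22e-06). At 4w it had 363, 347 and 321 CPM in the controls and 186, 227 and 250 CPM in PQ (-0.64 ± 0.11, adjusted p = 0.00376). Foxl1 and Foxc2, the next forkhead genes of this cluster, did not pass at either time, with effects of 0.50 and 0.40 log2 at 1w and 0.06 and 0.73 at 4w. Foxf1 is overlapped by a predicted gene, Gm20388, on the same strand.

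**Figure D2:**
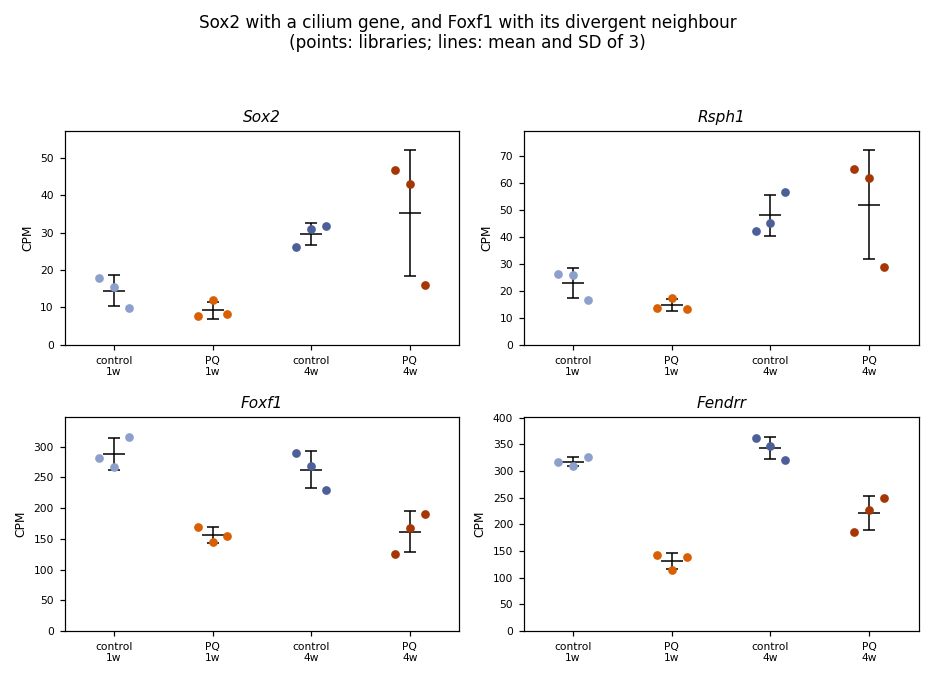
CPM (y axis, starting at 0) of Sox2 and the cilium gene Rsph1, and of Foxf1 and its divergent neighbour Fendrr, with a point for each library and lines for the mean and SD of 3 libraries. Rsph1 follows the order of the groups seen for Sox2, with replicate 3 of PQ 4w low in both, and Fendrr lies below its controls at both times as Foxf1 does.

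Tbx4 (gene ID 21387, chr11:85886367-85916097, plus strand, 9 exons) rose in PQ 1w. It had 122, 113 and 130 CPM in control 1w and 148, 151 and 132 CPM in PQ 1w, with every PQ library above every control. The rise was small, 0.24 ± 0.08 log2 or 1.18-fold (adjusted p = 0.0224), and missed the threshold without control 1w replicates 1 or 2 or PQ 1w replicates 1 or 2 (adjusted p of 0.0517 to 0.0866). At 4w the controls had 109, 101 and 118 CPM and the PQ libraries 115, 108 and 115 CPM, which overlapped (0.04 ± 0.08, adjusted p = 0.785).

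Tbx5 (gene ID 21388, chr5:119796514-119885220, plus strand, 9 exons) had 69.8, 63.1 and 77.3 CPM in control 1w and 75.7, 82.2 and 71.5 CPM in PQ 1w (0.13 ± 0.08 log2, adjusted p = 0.222). At 4w it had 66.6, 59.8 and 67.9 CPM in the controls and 65.9, 65.5 and 63.0 CPM in PQ (0.00 ± 0.08, adjusted p = 0.999). The groups overlapped at both times, and the ratio of its count to that of Tbx4 stayed between 0.513 and 0.613 in the 12 libraries. TBX5 is also a heart factor: 14 cardiac genes summed to between 89.6 and 1818 CPM, and 11 of the 14 were higher in control 4w than in control 1w, where Tbx5 differed by -0.11 ± 0.08 (adjusted p = 0.383).
Of the T-box genes that neighbour these factors, Tbx3, next to Tbx5, fell from 224 ± 14.7 to 113 ± 2.45 CPM (SD, n = 3) at 1w (-0.98 ± 0.10 log2, adjusted p = 6.26e-06 in edgeR) and from 247 ± 10.7 to 157 ± 24.5 CPM at 4w (-0.65 ± 0.10, adjusted p = 0.00207). Tbx2, next to Tbx4, did not pass at either time (-0.10 and -0.35 log2, adjusted p = 0.46 and 0.0583).

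**Figure D3:**
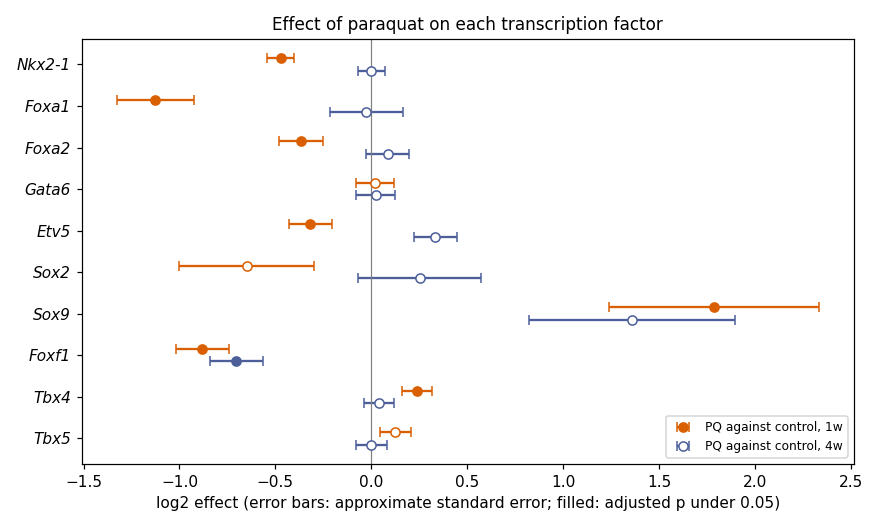
Log2 effect of PQ against control (x axis) for each factor (y axis) at 1w and 4w, with the approximate standard error as bars and filled points for an adjusted p under 0.05. Filled points at 1w mark 5 factors below 0 and 2 above, and at 4w Foxf1 alone is filled.

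In all, libraries of PQ and control did not overlap for 6 members at 1w (Nkx2-1, Foxa1, Foxa2 and Foxf1 lower, Sox9 and Tbx4 higher) and for 2 at 4w (Foxf1 lower, Etv5 higher). Over all genes this was the case for 58.7% at 1w and 31.2% at 4w, so the members' share was near the background at 1w and below it at 4w. Without PQ 4w replicate 3 the effect at 4w was -0.84 for Foxf1 (adjusted p = 0.00265), 0.30 for Etv5 (adjusted p = 0.139) and 0.19 for Foxa2 (adjusted p = 0.267). For Nkx2-1, Gata6, Tbx4 and Tbx5 it then lay between -0.03 and 0.02, and none of these 4 passed. The change of the effect between times was then 0.45 for Nkx2-1, 0.54 for Foxa2 and 0.61 for Etv5, with adjusted p of 0.00739, 0.0123 and 0.0166.

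PQ 4w was compared with PQ 1w directly, and control 4w with control 1w, to show what changed with time. Between the PQ groups 5 members were higher at 4w (Sox2, Foxa1, Nkx2-1, Foxa2 and Etv5) and 2 were lower (Tbx4 and Tbx5), where 26.7% of all genes were called higher and 27.8% lower. Sox2 rose most, by 1.93 ± 0.35 log2 (adjusted p = 0.000563), and Foxa1 by 1.37 ± 0.20 (adjusted p = 0.000135). Without PQ 4w replicate 3, where 53.5% of all genes were called, the 7 calls remained, with rises of 2.26 for Sox2 and 1.57 for Foxa1. The rise of Etv5 missed the threshold without PQ 1w replicate 1 or replicate 3. The fall of Tbx5, by -0.24 ± 0.08 (adjusted p = 0.0258), missed the threshold in 5 of 16 alternatives, with adjusted p of 0.0534 to 0.102. Those were library totals (-0.17) and upper quartile factors (-0.19) as the scale, limma on log2(FPKM + 0.1) (-0.17) or log2(FPKM + 1) (-0.16), and the fit without PQ 1w replicate 2 (-0.18).
Between the controls edgeR called 0 members, where 5.9% of all genes were called higher and 4.2% lower. DESeq2 also called 0, where its shares were 7.12% higher and 7.68% lower. At an unadjusted p under 0.05 in edgeR, where 15.4% of all genes were higher and 12.8% lower, Sox2 was higher (1.03 ± 0.33 log2, adjusted p = 0.0685) and Etv5 lower (-0.27 ± 0.11, adjusted p = 0.135). The control 4w libraries all lay above the control 1w libraries for Sox2, and it passed when only these groups were fitted (1.02, adjusted p = 0.00685).

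Each factor was set beside fixed marker lists of the cells it is known from, and some of these comparisons are not reported here. The values are the log2 CPM of the gene minus the mean log2 CPM of the list, with 0 at the mean of the 6 controls. These are descriptions with no test. At 1w the 16 pan-epithelial genes had a median log2 effect of 0.22, with 6 higher and 3 lower. Among those higher were the keratin genes Krt7, Krt8, Krt18 and Krt19 and the claudin gene Cldn4, of which Krt8, Krt19 and Cldn4 also belong to a list of transitional alveolar epithelium. The 15 alveolar type 2 genes had a median of -0.52, with 1 higher and 10 lower. Some of them, such as Sftpb and Sftpc, are also on the list of target genes given below. At 4w the pan-epithelial median was 0.16, and 5 of the 15 type 2 genes were higher (median 0.23) while 10 did not pass.
Relative to the pan-epithelial list Nkx2-1 stood at -0.86 to -0.72 log2 in PQ 1w and at -0.12 to 0.14 in the 6 controls. Relative to the type 2 list it stood at -0.19 to -0.16 in PQ 1w, as in control 1w (-0.20 to -0.12). Nkx2-1 thus lay with the type 2 genes and below the general epithelial genes in these libraries. Foxa2 did likewise, at -0.71 to -0.62 against the pan-epithelial list and -0.15 to 0.05 against the type 2 list.
Foxa1 lay below both lists in PQ 1w, at -1.79 to -1.39 against the pan-epithelial genes and -1.21 to -0.72 against the type 2 genes. Its control 1w values against the type 2 list were -0.44 to -0.06. Foxa1 was also set against 2 airway lists, a comparison added after the values were seen. Relative to 14 ciliated cell genes it stood at -0.27 to -0.11 in PQ 1w. That was below every control 1w library (0.19 to 0.60) and above every control 4w library (-0.38 to -0.34). Relative to 12 club cell genes it stood at 0.01 to 0.24 in PQ 1w. That was within the control 1w range (-0.03 to 0.85) and above every control 4w library (-0.57 to -0.44). Of the club cell genes 7 were lower and 5 did not pass in PQ 1w (median -1.06). The club list includes Kdr, which is also on the list of capillary endothelium used below. Gata6, in contrast, stood at 0.37 to 0.44 against the type 2 list in PQ 1w and at -0.14 to 0.04 in control 1w.

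**Figure D4:**
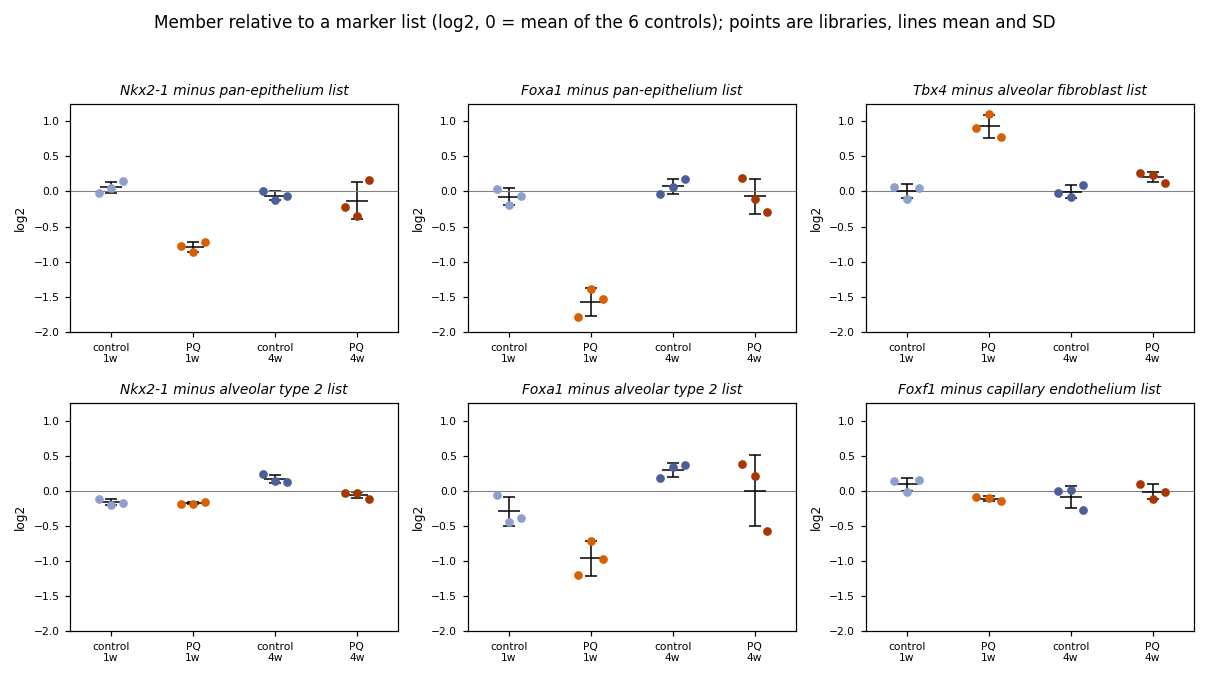
Log2 level of a factor minus the mean of a marker list (y axis, 0 is the mean of the 6 controls), with a point for each library and lines for the mean and SD of 3. In PQ 1w Nkx2-1 lies below the pan-epithelial genes but at its control 1w level against the type 2 genes, and Foxa1 lies below both. In the same group Tbx4 lies above the alveolar fibroblast genes, and Foxf1 lies near the capillary genes but below its control 1w libraries.

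Foxf1 is known from capillary endothelium. Of 16 capillary genes 10 were lower and 6 did not pass at 1w, and 12 were lower and 4 did not pass at 4w, with median log2 effects of -0.53 and -0.58. Relative to that list Foxf1 stood at -0.15 to -0.09 in PQ 1w, below every control 1w library (-0.02 to 0.15). In PQ 4w it stood at -0.12 to 0.10 and in control 4w at -0.27 to 0.00, which overlapped.
Tbx4 and Tbx5 lay above the alveolar fibroblast list in PQ 1w. Of its 14 genes 9 were lower and 2 higher at 1w (median -0.51), and 4 were lower and 1 higher at 4w (median -0.13). Relative to it Tbx4 stood at 0.78 to 1.10 in PQ 1w and 0.13 to 0.27 in PQ 4w, and Tbx5 at 0.68 to 1.00 and 0.04 to 0.29. The controls lay at -0.11 to 0.09 for Tbx4 and -0.17 to 0.07 for Tbx5. Other mesenchymal lists did not fall at 1w. The median was 0.41 for 13 myofibroblast and smooth muscle genes (5 higher, 3 lower) and 0.26 for 10 adventitial fibroblast genes (3 higher, 1 lower). For 10 pericyte genes it was 0.10 (3 higher, 2 lower). Tbx4 and Tbx5 were not set against these lists.

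The pattern of Sox2 over the libraries was close to that of ciliated cell genes. The 3 genes most like it over the 12 libraries, by the root mean square difference of centred log2 CPM among 14800 genes, were Tcte1, Cfap157 and Rsph1, at 0.11, 0.11 and 0.12 against a standard deviation of 0.88 for Sox2 itself. Rsph1, which encodes a radial spoke protein of motile cilia, had 26.4, 26.1 and 16.7 CPM in control 1w and 13.6, 17.3 and 13.4 CPM in PQ 1w. At 4w it had 42.2, 45.1 and 56.7 CPM in the controls and 65.5, 61.8 and 28.8 CPM in PQ. Relative to a list of 14 ciliated cell genes, a comparison added after the values were seen, Sox2 stayed between -0.22 and 0.17 log2 in all 12 libraries. Relative to the 12 club cell genes, set beside it at the same time, it lay between -0.23 and 0.64. Of the 14 ciliated cell genes 3 were lower and 11 did not pass in PQ 1w, and their median effect at 4w was 0.24. In control 4w against control 1w 9 of them were higher and 5 did not pass. The ciliated list summed to 516 to 742 CPM in control 1w and 304 to 371 CPM in PQ 1w. At 4w it summed to 921 to 1081 CPM in the controls and 642 to 1347 CPM in PQ, with replicate 3 the lowest. The part of airway content per sample in the values of Sox2 was not tested.
For Tbx5, the member with the smallest standard deviation over the libraries (0.134), the genes most like it were Anapc1, Arfgef2 and Copa at 0.05 to 0.06. For Sox9, with a standard deviation of 0.748, they were Fut2, Basp1 and Calca at 0.32 to 0.34. Nkx2-1 was most like Zcchc8, Ccpg1 and Exd2, Foxa1 most like D630039A03Rik, Bnipl and Faah, and Foxa2 most like Cds1, Ccdc120 and Cnksr1. Foxf1 was most like Phactr1, Dusp3 and Acer2 and Tbx4 most like Sec31a, Vps53 and Med15, the last 3 at 0.05 to 0.06. Bend7 and Paqr8 were among the genes most like Gata6, and Bcor among those most like Etv5. These points share libraries and depth, and the likeness carries no test.

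Genes that NKX2-1, FOXA1 and FOXA2 are known to drive moved in both directions at 1w. Of 20 such targets 9 were lower, 3 higher and 8 did not pass, with a median log2 effect of -0.31 over the list. Some of these targets, among them Sftpb and Sftpc, are also on the alveolar list used above. The falls of these lists thus rest partly on the same genes and are not separate observations. The club cell gene Scgb1a1 fell from 24855 ± 4497 to 4011 ± 763 CPM (SD, n = 3), by -2.63 ± 0.24 log2 (adjusted p = 4.21e-06 in edgeR). The surfactant genes Sftpa1 (-1.03 ± 0.10), Sftpc (-0.90 ± 0.12) and Sftpb (-0.28 ± 0.10) fell with it, while Sftpd did not pass (-0.05 ± 0.09, adjusted p = 0.697). Other genes lower were Lamp3, Slc34a2, Abca3, Cebpa and Lyz2, the last also a macrophage gene. Ctsh, encoding a lysosomal protease, rose by 1.31 ± 0.13, Pdpn, an alveolar type 1 membrane gene, by 0.65 ± 0.15 and the mucin gene Muc1 by 0.32 ± 0.09. At 4w 3 of the 20 were higher (Lamp3, Slc34a2 and Lyz2), 1 was lower (Aqp5, a water channel gene of type 1 cells, -0.48 ± 0.10) and 16 did not pass.

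A list of 50 other lung developmental transcription factors, 49 of them tested, had 13 higher and 19 lower at 1w (median -0.26) and 7 higher and 9 lower at 4w (median 0.05). Apart from Etv4, those that rose most at 1w were Trp63, the basal cell factor (1.65 ± 0.56 log2, adjusted p = 0.0279), and Gli1, a Hedgehog effector and target (1.44 ± 0.15, adjusted p = 1.22e-05). Those that fell most were Sox11 (-1.61 ± 0.17, adjusted p = 1.13e-05), Prdm1 (-1.18 ± 0.19) and Hoxb5, a mesenchymal homeobox gene (-1.04 ± 0.13). At 4w Trp63 (2.03 ± 0.58) and Mycn (1.69 ± 0.28) were highest with Etv4, and Hopx, a type 1 cell gene (-1.04 ± 0.19), Hoxb5 (-0.74 ± 0.12) and the endothelial factor Sox18 (-0.70 ± 0.17) were lowest.
Of 33 tested genes of the signals upstream of these factors, 7 were higher and 14 lower at 1w, and at 4w 4 were lower and 29 did not pass. At 1w Fgf1 (-1.25 ± 0.10), the retinoic acid enzyme gene Aldh1a1 (-1.22 ± 0.13) and Fgfr3 (-1.19 ± 0.12) were lowest, and the ligand genes Wnt5a (1.45 ± 0.12) and Wnt7b (0.91 ± 0.30) were among the highest. At 4w Wnt2 (-0.81 ± 0.19), Fgfr3 (-0.63 ± 0.12) and the FGF feedback inhibitor gene Spry1 (-0.35 ± 0.08) were lowest. Fgfr2, the epithelial receptor upstream of Etv5, and its ligand gene Fgf10 were looked up after the values were seen. Foxp1, Spry4 and Dusp6 were looked up with them and are not reported here. Fgf10 is also on the alveolar fibroblast list used above. A link of either gene to the values of Etv5 was not tested. Fgfr2 had 155, 154 and 155 CPM in control 1w and 86.7, 98.3 and 88.8 CPM in PQ 1w (-0.76 log2, adjusted p = 3.53e-06). Fgf10 had 23.4, 25.4 and 20.2 CPM in control 1w and 18.2, 16.7 and 17.2 CPM in PQ 1w (-0.40, adjusted p = 0.00531). Neither passed at 4w (0.13 and 0.10 log2, adjusted p = 0.223 and 0.562).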

How the data were processed

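Homogenized lung gave RNA with an integrity number above 7, sequenced on a BGISEQ 500 machine according to the labels' protocols. HISAT and RSEM 1.2.12 with the mm10 build are named in the submitters' processing notes. The sources used here give neither the HISAT version nor the annotation release or strandedness. The deposited expected counts are RSEM estimates that the authors left unscaled, per the file headers, and they were rounded for testing. FPKM values come from the authors too, deposited in the same tables, and served for levels between genes and in alternatives. Genes absent from a library's table counted as 0, and 27 date-like symbols were restored from gene IDs.

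Genes were tested with edgeR 4.0.16 (quasi-likelihood F-test, all 12 libraries, 4 group means, TMM scaling, filterByExpr with minimum count 10 and minimum total 15) in R 4.3.3, with Benjamini-Hochberg adjustment over 15921 genes and a threshold of 0.05. Approximate standard errors are the absolute effect over the root of the F statistic. The script was tested on simulated data. DESeq2 1.42.0, limma 3.58.1, other scalings, filters and left-out libraries were alternatives. Likeness used log2 (CPM + 0.5). The 26 marker and pathway lists (345 symbols, 341 matched, 37 in more than 1 list) include genes that whole lung expresses in several cell types. The members and lists were chosen with earlier results of these data known. Genes named were the members, the 3 highest and 3 lowest passing genes of the transcription factor and signal lists, any target or neighbour, and the 3 genes most like each member. Some genes that this rule names are not reported here.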

Additional observations from a re-analysis of the deposited data

Results flagged for a closer look

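The effect of PQ differed between 1w and 4w, by edgeR's test of the difference itself, for 4 of the 10 factors. The 4w effect minus the 1w effect was 0.473 log2 for Nkx2-1 (adjusted p = 0.00376), 1.10 for Foxa1 (adjusted p = 0.0104), 0.451 for Foxa2 (adjusted p = 0.0482) and 0.650 for Etv5 (adjusted p = 0.00893). For Nkx2-1, Foxa1 and Foxa2 the 3 PQ 1w libraries lay below all 3 controls and the 4w groups overlapped. For Etv5 the point estimate was below 0 at 1w and above 0 at 4w. Over all genes 14.1% were called in this direction.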

How the results depend on the processing

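Over 50 member effects and 850 alternative values, 809 kept their direction and side of the threshold, 31 lost the call, 10 gained one and 0 changed the direction of a call. Nkx2-1, Foxa1 and Foxf1 at 1w, and the difference between times of Nkx2-1, Foxa1 and Etv5, passed in every alternative. With 1 library left out, the members called at 1w numbered 3 to 6 against 7, with 3 without control 1w replicate 2 and 4 without PQ 1w replicate 1, where 44.7% and 42.0% of all genes were called. At 4w they numbered 0 to 2 against 1 (Foxf1): 0 without control 4w replicate 1, where 3.98% of all genes were called, and 2 without control 4w replicate 3 (Etv5 added, 7.35% of all genes) or PQ 4w replicate 3 (Sox9 added, 13.1%). The count at 4w was 2 with DESeq2, with library totals, and with limma on log2(FPKM + 0.1) or log2(FPKM + 1), Etv5 being added each time and 11% to 13.9% of all genes called, and 0 with only the groups compared, where 4.79% of all genes were called. Control 4w against control 1w gave 1 member (Sox2) with only the groups compared, where 14.6% of all genes were called. With 1 library left out the difference between times gave 3 to 5 members, where 25.6% to 32.6% of all genes were called. Without 1 library of the PQ groups, PQ 4w against PQ 1w gave 6 or 7 members, where 46.4% to 53.5% of all genes were called. For the difference, a fit of only the groups compared is the main fit and was not repeated. Leaving out a library leaves its arm with 2 libraries. The cause of these changes was not tested. Depth limits Sox9 (at most 20 counts in a control library).

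Replicate numbers recur in all groups. Same-numbered libraries of different groups had deviations from their group means that correlated at -0.366 to 0.261. Differently numbered libraries correlated at -0.333 to 0.349. Between control 1w and PQ 1w these ranges were -0.366 to -0.088 for the same number and -0.119 to 0.307 for different numbers. Between control 1w and control 4w they were -0.330 to -0.034 and -0.129 to 0.232. The ranges overlapped in each pair of groups, so these values cannot tell whether the numbers pair the samples. With the replicate number as a block in edgeR the calls were 7 at 1w, 1 at 4w and 4 for the difference. Of all genes 48%, 10.3% and 30.3% were then called. Between PQ groups the calls were 7, where 53.1% of all genes were called. Between controls 1 member was called (Sox2, 1.09 log2, adjusted p = 0.0459), where 9.09% of all genes were.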

Other observations

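Genes beside the members on the chromosome had values of their own. Dgkg, a diacylglycerol kinase gene next to Etv5 on the same strand, fell from 7.87 ± 0.749 to 2.86 ± 0.296 CPM (SD, n = 3) in PQ 1w, by -1.47 ± 0.16 log2 (adjusted p = 1.17e-05 in edgeR), and missed the threshold at 4w (-0.46 ± 0.14, adjusted p = 0.0578). Of the other fixed neighbours of the members, Brip1 (1.19 ± 0.15) and Rbbp8 (0.48 ± 0.10), both DNA repair genes, rose at 1w, and Mbip and Mib1 did not pass. Ttc6, across from Foxa1 on the opposite strand and looked up after the values were seen, averaged 4.40 CPM over the 12 libraries and was lower in PQ 1w by -0.79 log2 (adjusted p = 0.0241).

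Calca, a neuroendocrine peptide gene and 1 of the 3 genes most like Sox9, had 1.77, 1.65 and 1.45 CPM in control 1w and 2.92, 5.72 and 3.27 CPM in PQ 1w. At 4w it had 2.36, 1.81 and 1.66 CPM in the controls and 5.17, 6.02 and 1.48 CPM in PQ, where replicate 3 was the lowest, as for Sox9.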
